A study of Danio rerio with 6 samples.

Results

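The MHC class I Z lineage genes described here are 7 of the 31484 Ensembl genes in the count tables, taken by gene ID: mhc1zba, mhc1zca, mhc1zda and mhc1zea on chromosome 1, and mhc1zaa, mhc1zja and mhc1zfa on chromosome 3. Their transcripts were counted in kidney marrow, where adult zebrafish make their blood cells, in 3 tet2 mutant libraries (tet2 -/-) and 3 wild type libraries (tet2 wt/wt), all from fish aged 3 to 5 months. A suspension of cells was made by pipetting and passed through a 70 micron filter, and the labels name no sort of it. The labels call the libraries biological replicates but give no allele, no sex and no number of fish in a library. The p-values therefore weigh the genotype difference against the spread between these libraries within a genotype. Tet2 is an enzyme that oxidises 5-methylcytosine in DNA. The comparison asked which transcripts differ with the genotype.

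Class I MHC molecules are heavy chains that pair with beta-2-microglobulin and show peptides on the cell surface to T cells. The peptides are cut by the proteasome, carried into the endoplasmic reticulum by the TAP transporter, and loaded with the help of tapasin and other chaperones. Teleost fish have several class I lineages. The classical, highly variable genes belong to the U lineage and lie in the core MHC region on zebrafish chromosome 19. The Z lineage lies outside that region and is known for a peptide-binding groove that is unusually conserved between fish species, while most L lineage genes lack the residues that anchor peptide ends.

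All 7 genes lie on the minus strand, and their coordinates, on GRCz10, come from the count tables. On chromosome 1, mhc1zea (ENSDARG00000001470) spans 46334486 to 46430897, mhc1zda (ENSDARG00000086877) 46433425 to 46470741, mhc1zca (ENSDARG00000069471) 46449556 to 46460558, and mhc1zba (ENSDARG00000036588) 46464192 to 46470764. These 4 genes fit within 136 kb and begin 20.6 Mb beyond tet2, which is listed as TET2 at 25662646 to 25693594 on the same chromosome. On chromosome 3, mhc1zfa (ENSDARG00000088022) spans 12577 to 21924, mhc1zaa (ENSDARG00000092162) 577881 to 598874, and mhc1zja (ENSDARG00000074765) 615199 to 634091. The gene models of the chromosome 1 group are interleaved. The model of mhc1zda has 12 exon blocks, and its 2 blocks at the 5′ end, 413 bases in all, lie wholly on exons of mhc1zba on the same strand. The other 10 blocks stand 25.3 kb away, on the far side of mhc1zca. The shared bases make up 12.8% of the exons of mhc1zda and 17.6% of those of mhc1zba, so reads there are of uncertain origin. In mhc1zea a single exon block lies 90.4 kb from the other 7, which hold 2212 of its 2235 exon bases. The intron between them spans SETD4 and cryzl1 and reaches into ITSN1, with no exon base shared.

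**Figure D1:**
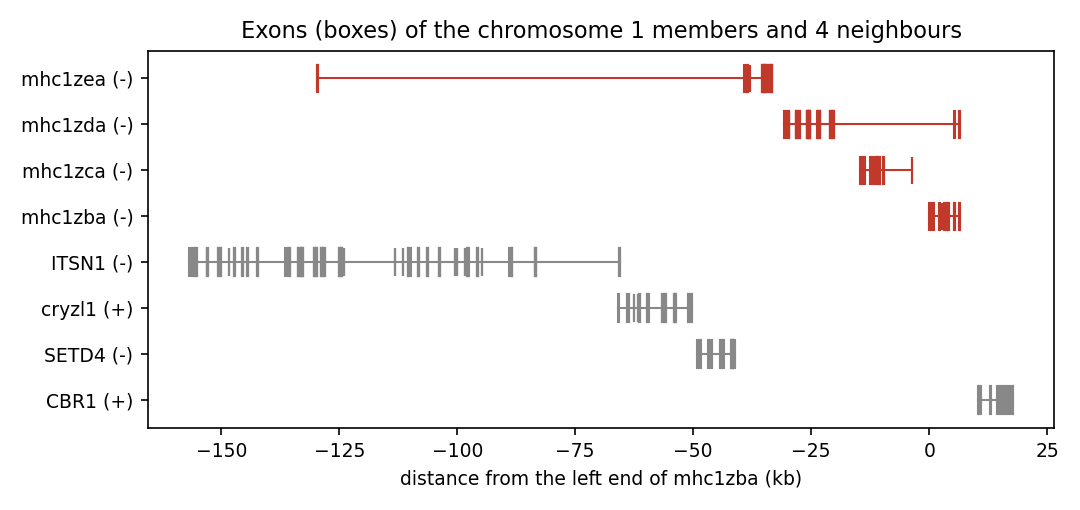
Gene models of the 4 Z lineage members on chromosome 1 (red) and of 4 neighbouring genes (grey), as distance in kb from the left end of mhc1zba, with the strand in parentheses. Boxes are exons, drawn at least 0.15 kb wide, and lines join the exons of a gene. The outlying 5′ exons of mhc1zda, at the right, sit above those of mhc1zba.

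Total counts per library ran from 46637322 to 49229143 in tet2 mutants and from 41285460 to 47228518 in wild type. Of 13 lists of cell type markers, every gene had reads in at least 1 library. Summed CPM of neutrophil genes ran from 10922 to 15338 in tet2 mutants and from 9953 to 20460 in wild type, and that of erythroid genes from 9084 to 15375 in tet2 mutants and from 12228 to 16855 in wild type. The sums of 4 lists were lower in every tet2 mutant library: stem and progenitor cells (549 to 694 CPM, against 724 to 899 CPM in wild type), kidney tubule (322 to 446 against 544 to 835), skeletal muscle (41.9 to 87.9 against 191 to 258) and stroma (375 to 596 against 681 to 759). Of all 21893 genes tested singly, 18.2% had genotypes without overlap, and 2261 were lower in every tet2 mutant library. In these 4 lists 1 gene, of the tubule list, had an adjusted p under 0.05 by edgeR. In bulk tissue, fewer cells of a type and less RNA per cell cannot be told apart. Of the 13 sums, that of 13 egg genes differed most between libraries, at 554, 351 and 3376 CPM in tet2 mutant 1, 2 and 3, and 7.24, 7.79 and 923 CPM in wild type 1, 2 and 3. Liver genes were highest in tet2 mutant 2, at 1380 CPM. The part of these transcripts in the levels of the Z lineage genes was not tested. The targeted gene, TET2, differed by -0.23 on the log2 scale (SE 0.20), which checks no label because the allele is not described.

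The 7 genes covered a wide range of levels, and mhc1zba held most of the reads. Per length, in RPKM (counts scaled to exon length and TMM-scaled library total), mhc1zba averaged 406 ± 42.8 over the 6 libraries (SD). By mean CPM (counts scaled to the TMM-scaled library total) it stood above 99.4% of the tested genes. It supplied 84.9% to 87.3% of the summed Z lineage RPKM in the tet2 mutant libraries, and 82.3% to 88.7% in the wild type libraries. Next came mhc1zea at 33.4 ± 8.25 RPKM, lower than mhc1zba by a factor of 9.06 to 18.4 in the single libraries. The levels of mhc1zda (12.0 ± 1.52 RPKM) and mhc1zaa (11.7 ± 4.66 RPKM) did not separate, since mhc1zda was the higher in 3 of 6 libraries. The RPKM ranges of mhc1zaa and mhc1zja (8.39 ± 4.52 RPKM) also overlapped, although mhc1zaa was above mhc1zja in all 6 libraries. The lowest 2 genes were mhc1zfa at 0.925 ± 0.214 RPKM and mhc1zca at 0.479 ± 0.116 RPKM, whose ranges did not overlap. How reads that match several genes were counted is not given, and sequence identity between members was not computed. The level of a member nearly identical to another gene would therefore be uncertain.

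All 7 genes passed the filter on low counts, but the low members rest on few reads. Counts of mhc1zca were 61, 59 and 44 in the tet2 mutant libraries and 43, 54 and 31 in the wild type libraries. A count of 31 has a 95% Poisson interval of 21.1 to 44.0, which covers counting error only. Counts of mhc1zfa ran from 54 to 101 in the tet2 mutant libraries and from 61 to 83 in the wild type libraries. Together the 7 genes took 0.117%, 0.102% and 0.0974% of all counts in tet2 mutant 1, 2 and 3, and 0.111%, 0.118% and 0.118% in wild type 1, 2 and 3.

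**Figure D2:**
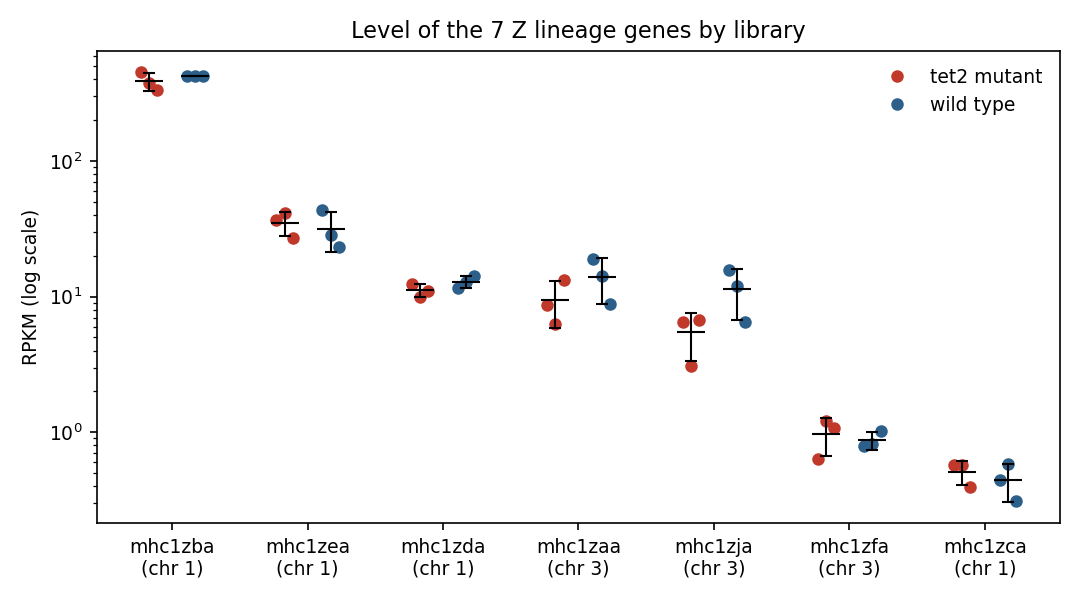
Level of each Z lineage gene in RPKM (log axis), ordered by the mean over the 6 libraries, with the 3 tet2 mutant libraries in red and the 3 wild type libraries in blue. Points are libraries, horizontal bars the mean and whiskers the SD (n = 3). The levels of mhc1zba, averaging 406 RPKM, stand far above the rest, and the genotypes overlap for every gene.

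None of the 7 Z lineage genes passed the test between the genotypes, and for each of them the 3 tet2 mutant libraries overlapped the 3 wild type libraries in CPM. By edgeR's quasi-likelihood test with Benjamini-Hochberg adjustment over 21893 genes, 0 of 7 had an adjusted p under 0.05, against 0.301% of all genes tested (0.0959% higher and 0.206% lower). An unadjusted p under 0.05 was reached by 1 of 7, mhc1zja, which was lower, against 11.9% of all genes (6.93% lower), and genotypes without overlap were found for 0 of 7, against 18.2% of all genes. DESeq2 called 0 of 7, where it called 4.13% of all genes, and edgeR with replicate numbers as a block called 0 of 7 and 2.14% of all genes. The fitted log2 fold changes, tet2 mutant minus wild type, were above 0 for 3 genes and below 0 for 4, with a median of -0.13, where the median of all genes was 0.02. These counts over 7 genes lie near the background.

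In mhc1zba the level was 1057, 876 and 784 CPM in tet2 mutant 1, 2 and 3, and 984, 999 and 995 CPM in wild type 1, 2 and 3. The wild type libraries lay within 1.52% of each other on this scale, and the mutant libraries lay on both sides of them. That closeness rests on the TMM factors, which were 0.93, 1.01 and 1.05 in wild type 1, 2 and 3. As a share of all counts, the 7 genes together took 0.111%, 0.118% and 0.118% there. The log2 fold change was -0.13 (SE 0.13), at an adjusted p of 0.738 by edgeR. Its 95% interval, on the linear scale, ran from 0.733-fold to 1.14-fold.

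The gene mhc1zda had 40.3, 32.2 and 35.8 CPM in the tet2 mutant libraries, and 37.2, 41.7 and 46.2 CPM in the wild type libraries. Tet2 mutant 1 lay inside the wild type range and the other 2 mutant libraries below it. Its log2 fold change was -0.21 (SE 0.14), at an adjusted p of 0.618 by edgeR, with an interval from 0.688-fold to 1.09-fold. Per length, mhc1zba exceeded mhc1zda by a factor of 30.3 to 37.6 in the tet2 mutant libraries and of 29.8 to 36.6 in the wild type libraries. The share of its reads from the exons in common cannot be read from gene totals.

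The gene mhc1zca had 1.28, 1.27 and 0.870 CPM in the tet2 mutant libraries, and 0.979, 1.29 and 0.685 CPM in the wild type libraries. The mutant values lay inside the wild type range. The log2 fold change of 0.21 (SE 0.35) left an interval from 0.650-fold to 2.06-fold. For mhc1zfa the values were 1.14, 2.17 and 1.92 CPM in the tet2 mutant libraries, and 1.41, 1.46 and 1.83 CPM in the wild type libraries. Here the wild type values lay inside the mutant range. The log2 fold change was 0.15 (SE 0.33), with an interval from 0.644-fold to 1.91-fold. On the log2 scale these intervals were no wider than those of mhc1zaa and mhc1zja, which had more reads. The sign depended on single libraries, since the log2 fold change was -0.04 for mhc1zfa without tet2 mutant 2 and -0.01 for mhc1zca without wild type 3.

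**Figure D3:**
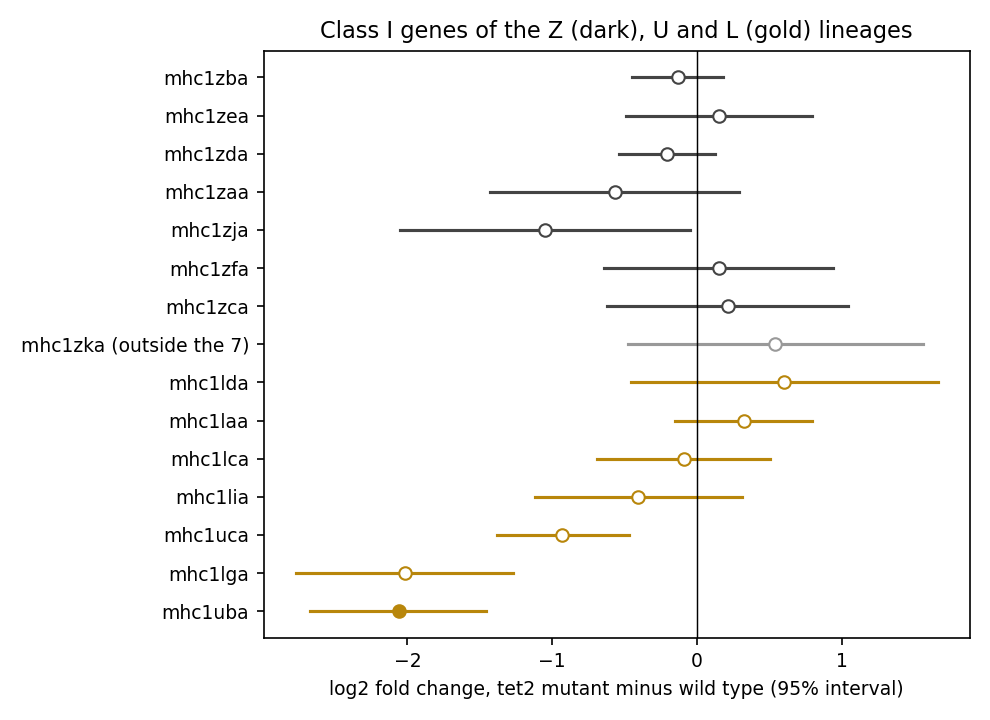
Log2 fold changes, tet2 mutant minus wild type, with 95% intervals from the edgeR fit, for the 7 Z lineage genes (dark), for mhc1zka (grey) and for the tested U and L lineage genes (gold). The filled point, mhc1uba, has an adjusted p under 0.05; open points do not. The intervals of 6 of the 7 Z lineage genes include 0.

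The widest differences among the members were those of mhc1zja and mhc1zaa, which stand 16.3 kb apart on chromosome 3. The level of mhc1zja was 9.55, 4.47 and 9.90 CPM in tet2 mutant 1, 2 and 3, and 22.8, 17.3 and 9.46 CPM in wild type 1, 2 and 3. Wild type 1 and 2 were thus high and the other 4 libraries low, with wild type 3 inside the range of the mutants. Wild type 1 and 2 also held the fewest egg transcripts, at 7.24 and 7.79 CPM. Among the mutants the order was the other way. Tet2 mutant 2 had the lowest egg sum (351 CPM) and the lowest mhc1zja, and tet2 mutant 3 the highest of both (3376 CPM of egg genes). The sums of stem and progenitor genes (899 and 804 CPM) and of muscle genes (234 and 258 CPM) were also highest in wild type 1 and 2. Both were lowest in tet2 mutant 2 (549 and 41.9 CPM). Unlike mhc1zja, both stood above every mutant library in wild type 3 (724 and 191 CPM). These lists were picked after the values were seen. The sums of stroma and tubule genes, also lower in every mutant library, were instead highest in wild type 3 (759 CPM) and wild type 2 (835 CPM). The part of any of these transcripts in the level of mhc1zja was not tested. The log2 fold change was -1.05 (SE 0.42), or 0.483-fold with an interval from 0.241-fold to 0.967-fold. The unadjusted p was 0.0423, and the adjusted p was 0.396 (edgeR, Benjamini-Hochberg), so the difference did not pass. Leaving out each library in turn gave log2 fold changes from -1.33 to -0.76, with adjusted p from 0.257 to 0.80. Without both libraries numbered 3, where the egg sums of each genotype peaked, it was -1.52, at an adjusted p of 0.236 by edgeR.

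The gene mhc1zaa had 24.5, 17.6 and 37.3 CPM in the tet2 mutant libraries, and 53.5, 39.6 and 24.9 CPM in the wild type libraries. Again tet2 mutant 2 was the lowest library and wild type 1 the highest, while tet2 mutant 3 lay above wild type 3. The log2 fold change was -0.57 (SE 0.36), at an adjusted p of 0.598 by edgeR, with an interval from 0.371-fold to 1.22-fold. It was -1.15 without both libraries numbered 3, at an adjusted p of 0.133 by edgeR, and from -0.91 to -0.30 with each library left out in turn. Over the 6 libraries the highest CPM was 5.10 times the lowest in mhc1zja and 3.04 times in mhc1zaa, against 1.35 times in mhc1zba and 1.44 times in mhc1zda. Within the genotypes, the SD of log2 CPM was 0.65 for mhc1zja and 0.55 for mhc1zaa. Among genes within 2-fold of their mean CPM, 10.1% had a larger SD than mhc1zja and 6.23% a larger one than mhc1zaa, while 51.2% had a larger one than mhc1zba. Per length, mhc1zaa exceeded mhc1zja by a factor of 1.33, 2.05 and 1.96 in tet2 mutant 1, 2 and 3, and of 1.22, 1.19 and 1.37 in wild type 1, 2 and 3. Together the 3 chromosome 3 genes supplied 3.07%, 2.41% and 5.35% of the summed Z lineage RPKM in the tet2 mutant libraries, and 6.93%, 5.40% and 3.41% in the wild type libraries.

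The profiles of mhc1zja and mhc1zaa over the 6 libraries were set beside those of other genes. Likeness was measured as the root mean square difference of log2 CPM, centred on each gene's mean, over 17527 genes with a mean above 1 CPM. The closest was ENSDARG00000086365 (0.14), 145 kb from mhc1zja at 468426 to 469790, with 7.07, 4.04 and 8.62 CPM in the tet2 mutant libraries and 21.5, 17.3 and 8.93 CPM in the wild type libraries. The second was si:dkey-36h5.2 (0.15), also on chromosome 3, at 4266170 to 4268555, and the third, which to 2 decimals was as close (0.15), was GLT1D1 on chromosome 8, named after its value was seen. For mhc1zaa the closest were zgc:194207 (0.18), at 42042635 to 42049563 on chromosome 3, and ENSDARG00000104964 (0.21), on chromosome 4. The difference between mhc1zja and mhc1zaa themselves was 0.31, and 13 genes lay closer to mhc1zja than mhc1zaa did. The 50 closest genes of each, a number chosen after the values were seen, were then taken from 17533 genes, with the other members included. Of these, 13 for mhc1zja and 6 for mhc1zaa lay in the first 5 Mb of chromosome 3, and the rest of each 50 elsewhere. That stretch, also chosen after the values were seen, held 0.502% of the genes compared. On the whole of chromosome 3 lay 13 for mhc1zja and 9 for mhc1zaa, against 5.58% of the genes compared. All these counts include mhc1zaa or mhc1zja, since each was among the other's 50. With 6 libraries this describes one profile and no more.

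Of 35 other genes that lie within 200 kb of either group of members, 27 were tested and 0 passed (edgeR, Benjamini-Hochberg). An unadjusted p under 0.05 (edgeR) was reached by 4 of 27, against 11.9% of all genes, so the count over both groups lies near the background. It was 4 of 16 on chromosome 3 and 0 of 11 on chromosome 1. The genotypes did not overlap in 7 of 27, of which 5 were on chromosome 3, against 18.2% of all genes. Whether the chromosome 3 neighbours exceed the background was not tested. DESeq2 called 2 of 30 with an adjusted p, against 4.13% of all genes, ENSDARG00000086365 (lower) and KDELR3 (ENSDARG00000104519, higher). Of the 16 tested neighbours on chromosome 3, 12 had a log2 fold change below 0, with a median of -0.59, where 10532 of all 21893 genes were below 0. Of the 11 tested neighbours on chromosome 1, 4 were below 0, with a median of 0.06. The neighbour zgc:165518, which was chosen after its values were seen, had 28.3, 7.24 and 318 CPM in the tet2 mutant libraries and 0.706, 0.669 and 84.3 CPM in the wild type libraries. It was highest in the library numbered 3 of each genotype, as was the summed CPM of egg genes, and the part of egg transcripts in the neighbours was not tested.

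**Figure D4:**
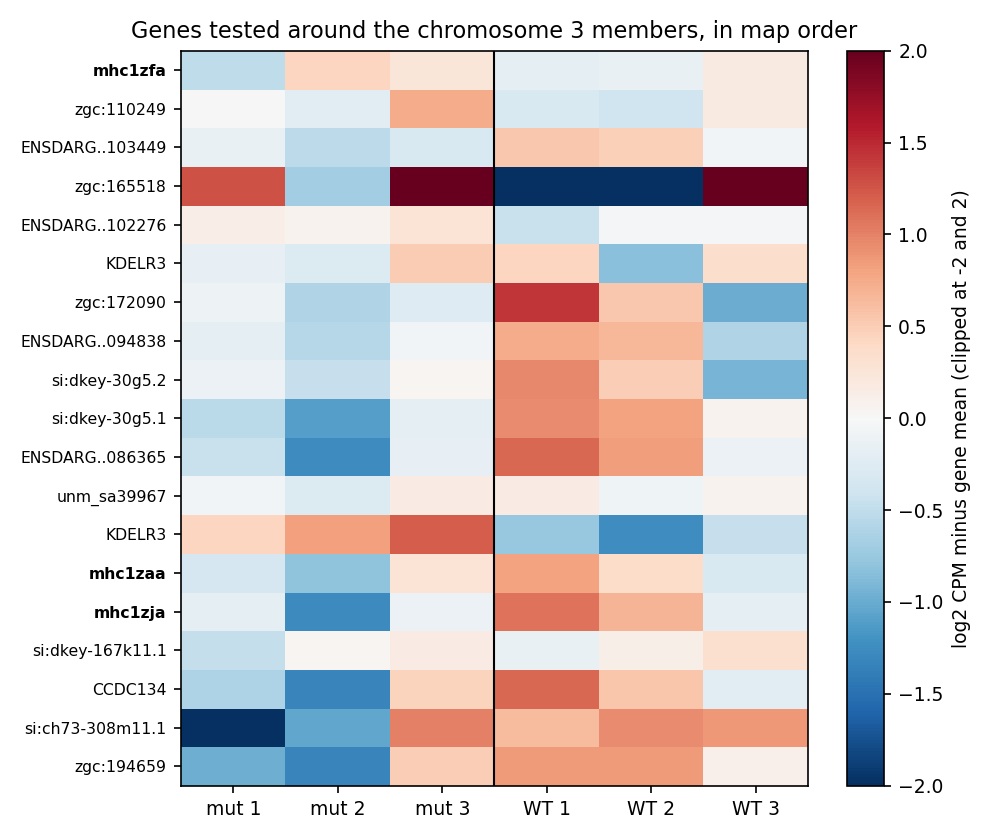
Log2 CPM minus the gene mean in each library for the 3 Z lineage genes (bold) and the 16 tested neighbours on chromosome 3, from top to bottom in map order, with the tet2 mutant libraries (mut) left of the wild type libraries (WT). Colours are clipped at -2 and 2, and "ENSDARG.." stands for the Ensembl prefix and its zeros. Several genes between zgc:172090 and CCDC134 share the high values of mhc1zaa and mhc1zja in wild type 1 and 2. Others there do not, as KDELR3 (ENSDARG00000104519) is lower in the wild type libraries and unm_sa39967 differs little between libraries.

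The gene mhc1zea had 82.4, 92.4 and 60.8 CPM in tet2 mutant 1, 2 and 3, and 96.7, 63.9 and 51.5 CPM in wild type 1, 2 and 3. The genotypes covered nearly the same range, while libraries within a genotype differed by a factor of up to 1.88. The log2 fold change was 0.15 (SE 0.27), at an adjusted p of 0.860 by edgeR, with an interval from 0.711-fold to 1.73-fold, and it was -0.04 without wild type 3. Of the 3724 other genes within 2-fold of its mean CPM, 9.77% had a larger SD within the genotypes.

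This order of libraries, with tet2 mutant 2 above 1 above 3 and wild type 1 above 2 above 3, was shared by most genes of antigen processing. It was found in 17 of the 22 tested genes of that list, against 9.32% of all genes tested and 1 of the 7 Z lineage genes, mhc1zea itself. The same order was found in 7 of 19 tested genes for the control of class I transcription. These counts were made after the values were seen. Over the 6 libraries the closest of the list to mhc1zea were the peptide transporter gene tap2t and the chaperone gene CANX, each with a root mean square difference of 0.07 on the log2 scale. As an example, the immunoproteasome subunit gene PSMB9 had 122, 168 and 84.5 CPM in the tet2 mutant libraries and 160, 114 and 83.9 CPM in the wild type libraries. Of the 50 genes closest to mhc1zea, 2 were on the list, which held 22 of the 17533 genes compared. The closest of all, named after their values were seen, were ponzr1 (0.03) and EEF1E1 (0.04), both outside the list. Some listed genes share exon bases with genes of the other strand. These are 767 of the 3999 bases of tap2t, with faap100, and 300 and 258 bases of tap2a, with PSMB8 and psmb13a of the list. The strand counted is not given, so reads there are of uncertain origin. The summed CPM of 9 B cell genes ran in the same order, at 2179, 2391 and 2074 in the tet2 mutant libraries and 2304, 2232 and 2094 in the wild type libraries. The summed CPM of the egg genes ran in the reverse order. So did that of 10 T cell genes, at 136, 108 and 156 in the tet2 mutant libraries and 124, 171 and 173 in the wild type libraries. The part of any of these in the levels of mhc1zea was not tested.

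**Figure D5:**
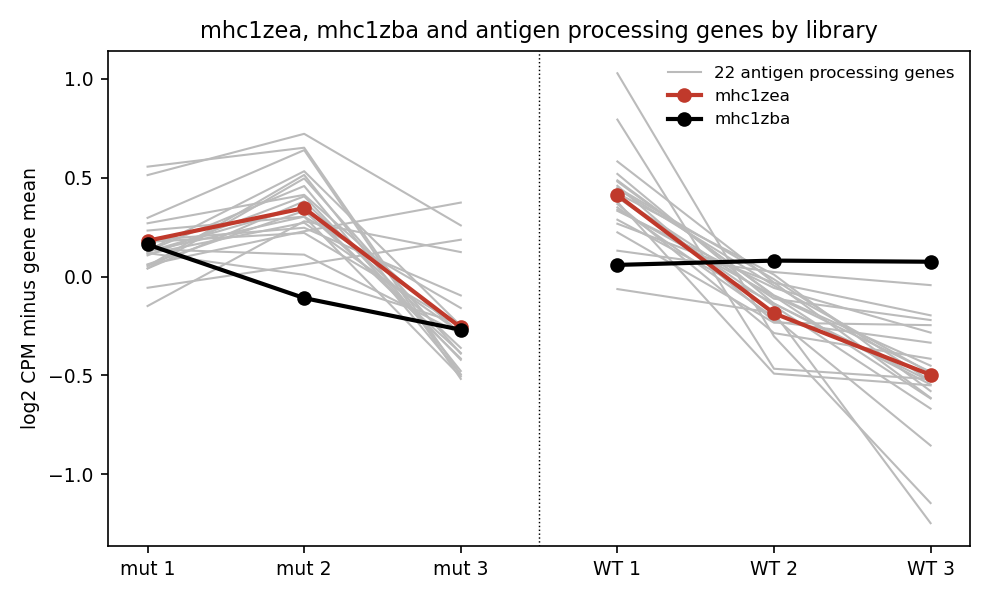
Log2 CPM minus the gene mean in the tet2 mutant libraries (mut, left) and the wild type libraries (WT, right) for mhc1zea (red), mhc1zba (black) and 22 antigen processing genes (grey). Lines join the values of 1 gene within a genotype. The red line runs with most grey lines, while mhc1zba, after TMM scaling, is nearly level over the wild type libraries.

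The genes that act with class I heavy chains did not pass either. Of 41 genes listed for antigen processing and for the control of class I transcription, all 41 were tested, 0 had an adjusted p under 0.05 by edgeR, and 3 reached 0.05 unadjusted, against 11.9% of all genes. By DESeq2, 1 of the 41 passed, rfx5, against 4.13% of all genes. The log2 fold changes were above 0 for 31 genes and below 0 for 10, with a median of 0.07. Of all genes tested, 11361 were above 0 and 10532 below.

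Beta-2-microglobulin, the shared light chain, was encoded by 2 listed genes. The level of b2m was 1569, 1539 and 1166 CPM in the tet2 mutant libraries, and 1715, 1394 and 1244 CPM in the wild type libraries, a log2 fold change of -0.03 (SE 0.17). The level of b2ml was 1430, 1325 and 1116 CPM in the tet2 mutant libraries, and 1442, 1338 and 1278 CPM in the wild type libraries, a log2 fold change of -0.07 (SE 0.13). Per length, b2m averaged 1084 ± 171 RPKM in tet2 mutants and 1104 ± 183 RPKM in wild type (SD, n = 3 each). That is above mhc1zba, at 387 ± 59.5 RPKM in tet2 mutants and 424 ± 3.14 RPKM in wild type. The second light chain gene, b2ml, averaged 357 ± 44.2 RPKM in tet2 mutants and 374 ± 23.0 RPKM in wild type.

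The transporter genes TAP1, tap2a and tap2t differed on the log2 scale by 0.48 (SE 0.39), -0.04 (SE 0.26) and 0.25 (SE 0.26). Of the 2 tapasin genes, tapbp.1 had 16.7, 19.3 and 14.0 CPM in the tet2 mutant libraries, and 11.2, 10.3 and 4.93 CPM in the wild type libraries, with no overlap. Its log2 fold change was 0.92 (SE 0.32), with an unadjusted p of 0.0271 and an adjusted p of 0.342 (edgeR, Benjamini-Hochberg). The other, tapbp.2, differed by 0.04 (SE 0.25) on that scale, and these genes share 739 exon bases on the same strand, so their reads are of uncertain origin. Among the regulators, rfx5, whose product binds MHC promoters in mammals, had 34.8, 31.3 and 31.5 CPM in the tet2 mutant libraries, and 21.8, 24.8 and 21.2 CPM in the wild type libraries. Its log2 fold change was 0.52 (SE 0.12), with an adjusted p of 0.151 by edgeR and of 0.0315 by DESeq2 (both Benjamini-Hochberg). The interferon signal carrier stat2 had 287, 255 and 271 CPM in the tet2 mutant libraries, and 202, 228 and 199 CPM in the wild type libraries (log2 fold change 0.37, SE 0.11, at an adjusted p of 0.269 by edgeR).

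Among the class I genes of other lineages, 1 passed. Of 12 U and L lineage genes, 7 were tested, 1 had an adjusted p under 0.05 by edgeR, against 0.301% of all genes. Unadjusted, 3 of the 7 reached 0.05, all lower, against 6.93% of all genes that did so and were lower. These 3 passed by DESeq2, against 4.13% of all genes. The genotypes did not overlap in 4 of the 7 (3 lower and 1, mhc1laa, higher), against 18.2% of all genes and 0 of the 7 Z lineage genes. The gene mhc1uba had 4.46, 4.55 and 2.89 CPM in the tet2 mutant libraries, and 18.6, 13.3 and 17.9 CPM in the wild type libraries, a log2 fold change of -2.06 (SE 0.25), at an adjusted p of 0.0430 by edgeR. That call ended when any 1 library was left out, with adjusted p from 0.0750 to 0.198 and log2 fold changes from -2.20 to -1.89. The 2 others were mhc1lga (-2.02, SE 0.31) and mhc1uca (-0.93, SE 0.19), at adjusted p of 0.0693 and 0.118 (edgeR, Benjamini-Hochberg). The value of mhc1lga rests on few reads, with counts of 10, 11 and 16 in the tet2 mutant libraries and 46, 46 and 44 in the wild type libraries. The interval of mhc1uba, from -2.67 to -1.46 on the log2 scale, overlaps that of mhc1zja, from -2.05 to -0.05, and lies below those of the other 6 Z lineage genes. Whether the lineages differ in their response was not tested.

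The name table holds 8 symbols that begin with mhc1z, and the gene outside the 7, mhc1zka (ENSDARG00000104293), lies on an unplaced scaffold. It was added after its values were seen. It had 9.07, 10.8 and 4.35 CPM in the tet2 mutant libraries, and 3.67, 4.92 and 8.05 CPM in the wild type libraries. The highest libraries of mhc1zka, tet2 mutant 1 and 2 and wild type 3, were among the 4 low ones of mhc1zja. Its log2 fold change was 0.54 (SE 0.43), at an adjusted p of 0.674 by edgeR.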

How the data were processed

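The authors deposited unnormalised counts for each Ensembl gene, in a separate table for each of the 6 libraries of total RNA from kidney marrow. The submitters' processing notes name Trimmomatic 0.36, STAR 2.5.2b and GRCz10. How reads were counted (tool, strand, several matches, annotation release) is not given in the sources used here, so reads from overlapping or near-identical genes are uncertain. Gene lengths are the length column of the deposited tables, in bases of merged exons. A name table gave symbols for 25752 of 31484 IDs (81.8%), and listed names were also looked up among RefSeq synonyms (GRCz12tu). The members, lists and tests were chosen with earlier results of these data known.

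In R 4.3.3, edgeR 4.0.16 filtered genes (filterByExpr by genotype), scaled libraries by TMM and compared genotypes with a two-sided quasi-likelihood F test with no covariate. Benjamini-Hochberg adjustment ran over 21893 genes at a threshold of 0.05. The SE is the log2 fold change over the square root of F, and 95% intervals use the matching quantile. CPM and RPKM were computed here with TMM-scaled totals. The fit was tested on simulated data. Alternatives were DESeq2 1.42.0, other scaling, no filter, libraries left out and a replicate block. A floor of 3 counts equals 0.0609 to 0.0727 CPM, and floors and Poisson intervals cover counting error only. Libraries of a genotype were not copies (chi-square per degree of freedom 52.5 to 155).

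Named were all members, TET2, the beta-2-microglobulin, TAP and tapasin genes, called genes of each list with the 4 (pathway) or 2 (U and L) smallest other p, and, for members whose log2 CPM spanned more than 1, the 2 genes of most like profile. A pathway gene that this rule names is not reported here. Replicate numbers are shared between genotypes without a stated meaning. Deviations from the genotype mean correlated at r = 0.437, 0.577 and 0.687 for same-numbered libraries, over 17534 genes, a pairing read from the data and not from the labels. The printed p, SE and intervals come from the fit without a block, and the block fit is 1 of the alternatives.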

Additional observations from a re-analysis of the deposited data

How the results depend on the processing

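No Z lineage gene passed under any of the 12 alternatives (other scaling, no filter, DESeq2, replicate block, each library left out, both libraries numbered 3 left out), and the lowest adjusted p of any member was 0.133, for mhc1zaa without both libraries numbered 3. With the replicate block 0 of 7 passed, and 468 of all genes did, against 66 without it; the block changed no other call named here. Over all genes, 36 passed with library totals, 999 with DESeq2 and 312 without both libraries numbered 3. Without tet2 mutant 1, 2 and 3 the count was 2, 2 and 11, and without wild type 1, 2 and 3 it was 6, 3 and 15. By DESeq2 1 pathway gene, 3 U and L lineage genes and 2 neighbours passed. Without both libraries numbered 3, 1 neighbour (zgc:194659) and 1 U and L lineage gene passed. The latter was mhc1uba, at an adjusted p of 0.0402 by edgeR. With any 1 library left out, 0 U and L lineage genes passed. Log2 fold changes with each library left out ran from -0.04 to 0.38 for mhc1zfa, -0.04 to 0.43 for mhc1zea, -0.01 to 0.45 for mhc1zca, -0.14 to 0.10 for b2m, -0.15 to 0.01 for b2ml, -0.21 to 0.16 for tap2a and -0.11 to 0.32 for tapbp.2, so their signs depend on single libraries; tap2a was 0.03 without both libraries numbered 3. The cause was not tested. The order of the 7 levels was the same in CPM as in RPKM. With 3 libraries per genotype, the spread between libraries limits what can be seen of every member.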
